A study of Rattus norvegicus with 20 samples.

Results

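Cultured thymic epithelial cells that had been transplanted into mouse skin and recovered from it (2nd round of culture) were compared with the same kind of cells before transplantation (1st round of culture). The comparison comprised the 4 thymic samples, 2 of each round, among 20 RNA-seq samples of the series, and it covered every rat gene of the count tables. The other 16 samples were cultures from bladder, trachea, vagina and whisker follicle, 4 each, taken at the same rounds. The bladder, trachea and vagina samples were labelled bulk cultures, whereas the whisker samples were clones, clone 7 before transplantation and subclone 14 after it. All cells came from Sprague-Dawley rats that express enhanced green fluorescent protein (EGFP) constitutively, which marks donor cells within a mouse host. The thymic donors were aged 4 months. All cells, also those before transplantation, were grown on a feeder layer of irradiated mouse 3T3-J2 fibroblasts and were sorted for EGFP before RNA extraction, a gate meant to leave out feeder and host cells. The recovered cells had been grafted with newborn mouse skin onto nude mice, which lack a thymus, and came from grafts with green hair follicles.

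The labels limit what the 2 thymic groups can stand for. Both 1st round samples were described as clone 9 in one label and as bulk in another, both 2nd round samples came from one recovered culture, bulk 907, and the cells had been kept as a frozen stock. Nothing states that the 2 samples of a round came from separate animals or transplants. The p-values therefore rest on the spread between parallel samples, pooled over the groups of all 20 samples, which may be technical. Transplantation, the recovery of cells from skin and a difference between the clone and the bulk culture cannot be told apart. The tissues also differed in donor age (PN57 for whisker, PN137 for thymus, PN200 for trachea and vagina and PN201 for bladder, where PN is the postnatal day), so tissue and donor age cannot be told apart in comparisons between tissues.

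Thymic epithelium arises from the endoderm of the pharyngeal pouches and forms the mesh in which T cells mature. Transcription factors such as Foxn1, Eya1, Hoxa3, Tbx1 and Isl1 act in its development, and its cells share the keratins and adhesion genes of stratified and simple epithelia. Epidermis, in contrast, is a barrier: its keratinocytes leave the cell cycle, switch on Krt10, join through desmosomes and build a cornified envelope sealed with specialised lipids. Epithelial cells of both kinds also signal to immune cells through chemokines and interferon-responsive genes. Many of these genes are read out by the transcription factors NF-kB, which binds kB elements, and the interferon regulatory factors. The latter bind the interferon-stimulated response element (ISRE).

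The upstream sequences of 7 called genes of that kind with a match are shown first, because genes with either element moved in both directions. Among called genes, the kB element was searched only in the list of chemokines and NF-kB targets. The ISRE was searched only in the list of interferon response and antigen presentation. Shown are all 5 called genes of the former list with a kB match and 2 of the 4 of the latter with an ISRE match. Apol9a and Cd80, which fell and held an ISRE match, are not shown. Each is the 250 bases before the transcription start in RefSeq (rat build GRCr8), matched by gene symbol. Capitals mark matches on either strand, in Casp1 and Cxcl10 to the ISRE core (GAAA, 2 bases of any kind, GAAA) and in the others to the kB element (GGGA, 4 bases of any kind, CC).
Casp1 (chr8:10872580-10872829, plus strand): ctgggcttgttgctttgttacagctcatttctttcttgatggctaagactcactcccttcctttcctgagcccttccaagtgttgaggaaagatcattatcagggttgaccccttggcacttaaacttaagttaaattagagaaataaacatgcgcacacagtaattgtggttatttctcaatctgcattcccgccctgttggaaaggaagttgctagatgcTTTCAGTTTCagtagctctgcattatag
Cxcl10 (chr14:15988816-15989065, plus strand): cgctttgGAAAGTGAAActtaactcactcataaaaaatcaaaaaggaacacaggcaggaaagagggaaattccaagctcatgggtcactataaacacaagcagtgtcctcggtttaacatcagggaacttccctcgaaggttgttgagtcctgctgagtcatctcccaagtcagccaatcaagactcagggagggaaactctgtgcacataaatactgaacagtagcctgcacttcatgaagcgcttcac
Cxcl1 (chr14:17479322-17479571, minus strand): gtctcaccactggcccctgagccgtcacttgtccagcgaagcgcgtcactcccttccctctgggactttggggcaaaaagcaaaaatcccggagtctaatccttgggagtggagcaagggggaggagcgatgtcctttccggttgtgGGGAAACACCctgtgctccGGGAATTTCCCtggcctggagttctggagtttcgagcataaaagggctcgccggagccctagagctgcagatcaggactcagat
Ccl20 (chr9:91836909-91837158, plus strand): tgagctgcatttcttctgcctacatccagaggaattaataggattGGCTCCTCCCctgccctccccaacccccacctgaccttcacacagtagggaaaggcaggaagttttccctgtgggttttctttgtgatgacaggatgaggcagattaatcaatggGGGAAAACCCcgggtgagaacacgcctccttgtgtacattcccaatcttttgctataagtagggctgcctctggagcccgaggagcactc
Tnfaip3 (chr1:15543980-15544229, minus strand): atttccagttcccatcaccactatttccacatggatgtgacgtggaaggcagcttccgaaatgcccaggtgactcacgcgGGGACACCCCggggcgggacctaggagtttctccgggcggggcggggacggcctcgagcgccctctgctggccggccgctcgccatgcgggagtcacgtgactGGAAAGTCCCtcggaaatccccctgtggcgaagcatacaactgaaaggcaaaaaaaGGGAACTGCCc
Bcl2a1 (chr8:98596556-98596805, plus strand): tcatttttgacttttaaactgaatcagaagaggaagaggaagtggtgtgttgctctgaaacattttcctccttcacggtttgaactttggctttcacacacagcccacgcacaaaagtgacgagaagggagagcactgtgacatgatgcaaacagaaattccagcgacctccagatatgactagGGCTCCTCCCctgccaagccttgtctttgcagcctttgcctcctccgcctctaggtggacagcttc
Cxcl6 (chr14:17596418-17596667, minus strand): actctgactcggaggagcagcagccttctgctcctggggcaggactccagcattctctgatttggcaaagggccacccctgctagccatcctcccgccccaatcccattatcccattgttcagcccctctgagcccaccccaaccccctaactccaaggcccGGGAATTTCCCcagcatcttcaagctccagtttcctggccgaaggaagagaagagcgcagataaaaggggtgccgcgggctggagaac
Casp1, which rose in recovered cells, and Cxcl10, which fell, each held 1 ISRE match, at 28 and 243 bases before the start. The Cxcl10 sequence also holds stretches that fit the kB element, which are not marked because it was not searched for that element. Cxcl1, Ccl20 and Tnfaip3, which all fell, held 3, 2 and 3 kB matches. Bcl2a1 and Cxcl6, which rose, held 1 and 2. In Cxcl1 and in Cxcl6, 2 of the matches overlap on opposite strands and read as a single run of capitals.

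The libraries had 22761949 to 29344701 reads on genes. A level of 3 reads, taken as the smallest shown, corresponded to 0.0990 to 0.127 CPM (counts scaled to library size with the trimmed mean of M values), a floor for counting error only. The 2 recovered samples were nearly alike: of 8785 genes with at least 10 CPM in both, 1 differed more than 2-fold. The 2 samples before transplantation stood further apart, with 110 of 8545 such genes more than 2-fold apart, 109 of them higher in sample 2. Among these were the cytoskeletal linker Dst (255 and 623 CPM) and the dynein heavy chain Dync1h1 (98.7 and 261 CPM), chosen after their values were seen. Of the 110 genes, 13 were later called higher and 1 lower in recovered cells. Among all groups of the series, the thymic cells before transplantation had the largest median absolute log2 ratio between samples, 0.212. The next largest was 0.141, in bladder cells before transplantation. The spread behind the SEs and p-values is pooled over all groups and may understate that of the thymic group before transplantation. Reads on no gene made up 10.4% and 13.5% of all counted entries before transplantation and 13.7% and 13.9% after it. Here and below, this share also includes reads left unassigned because they overlapped several genes. Entries with several alignments made up 34.5% and 30.9% before and 29.0% and 28.8% after. Since CPM values are not divided by gene length, no levels are compared between genes.

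Markers of the thymic epithelial label were in part measurable. Of 34 markers, 16 had a symbol and were tested, and Foxn1 and Tp63 were not among them. Of the 16, Tbx1 and Krt18 rose (12.5%), Krt8, Cd83, Eya1 and Cd80 fell (25.0%) and 10 were not called. The median log2 fold change of the 16 was -0.32, and their summed level was 2181 and 1770.3 CPM before and 1322 and 1300 CPM after transplantation. Aire, a regulator of medullary thymic epithelium, was close to the floor in all 4 samples (0.165 to 0.373 CPM). The single T cell marker tested, Cd28, was under the floor in all 4 samples (0.0414 to 0.0794 CPM).

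Recovered thymic cells differed in 2046 of the 13302 genes tested, which is 15.4% of them: 1130 genes (8.49%) were higher after transplantation and 916 (6.89%) lower. A gene was called at a Benjamini-Hochberg adjusted p under 0.05 in limma (voom), fitted on all 20 samples, and a change of at least 2-fold, which is 1 on the log2 scale. The groups of samples did not overlap for 1124 of the genes called higher and for all 916 called lower. This follows largely from the call itself and is no separate support, and the share of all tested genes without overlap was not counted. The rises reached further than the falls: 141 genes rose by 4 or more on the log2 scale and 89 fell by as much. Over all genes tested the median log2 fold change was 0.0047. Symbols were known for 1911 of the tested genes, and of these 362 (18.9%) were called higher and 268 (14.0%) lower. The symbols come from lists that the study itself chose for differences from whisker cells in these same samples, so named genes change more often than genes at large, and the 1416 called genes without a usable symbol are not described. Counts of named members are therefore read against 18.9% and 14.0%.

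**Figure D1:**
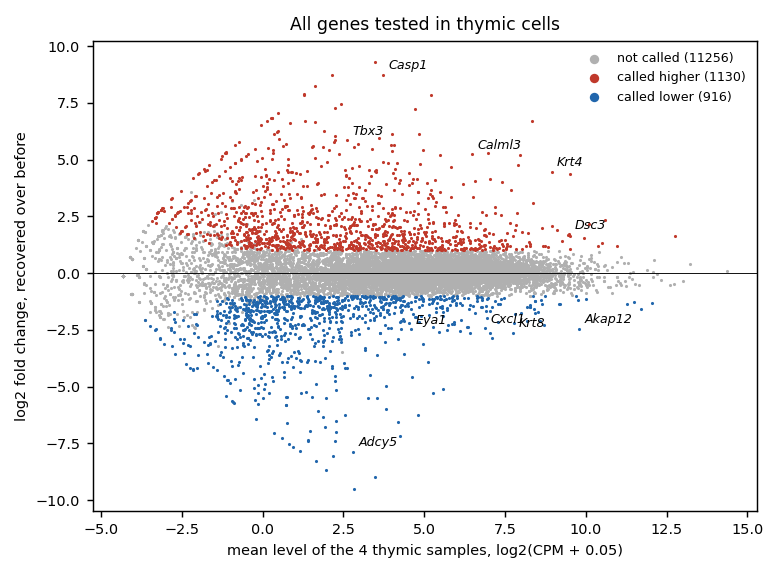
Log2 fold change of recovered over before thymic cells (vertical axis) against the mean level of the 4 samples, log2(CPM + 0.05) (horizontal axis), for the 13302 genes tested, with genes called higher in red and called lower in blue. The 1130 rises extend to larger changes than the 916 falls, and Casp1 and Adcy5 mark the far ends among named genes.

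The named gene that rose most was Casp1, the protease that activates interleukin-1 beta in inflammasomes. Its level was 0.159 and 0 CPM in the 2 samples before transplantation and 26.0 and 26.4 CPM in the recovered samples. Only 4 reads were counted before transplantation against 1413 after it, a 330-fold difference with a 95% counting interval of 126 to 1190. The fitted log2 change was 8.74 ± 0.61 (SE, adjusted p = 1.06e-08), a size that rests on those 4 reads. Aim2, a DNA sensor that assembles a Casp1 inflammasome, rose alongside, from 0.873 and 0.994 CPM to 21.6 and 21.1 CPM, and Casp4, a related caspase, from 14.5 and 12.6 CPM to 29.6 and 29.0 CPM. In the other cultures Casp1 was above the floor in every sample, from 0.292 CPM in recovered trachea to 24.8 CPM in recovered bladder, so that the thymic cells before transplantation were the lowest of the 10 groups. Of 4 macrophage markers tested, 2 rose (Cd53, to 2.59 and 2.64 CPM, and Ctss, to 2.29 and 1.98 CPM), Clec12a had no read, and the summed level of the 4 was 30.9 and 26.2 CPM before and 33.1 and 32.4 CPM after; their part in the rise of Casp1 was not tested.

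Further large rises were seen in genes of unlike functions. Tbx3, a T-box transcription factor, went from 0.119 and 0.290 CPM to 11.6 and 12.2 CPM (log2 5.85 ± 0.52, adjusted p = 1.41e-07). Ddo, D-aspartate oxidase, went from 0.437 and 0.290 CPM to 23.0 and 24.1 CPM. The glycerol and water channel Aqp9, the atypical cadherin Cdh13, the tetraspanin Tspan33, the lipid flippase Atp10b and the cytidine deaminase Apobec1 all rose by between 4.19 and 5.63 on the log2 scale. Both recovered samples lay above both samples before transplantation in each of these genes, which the rule that chose them required.

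The named gene that fell most was Adcy5, an adenylyl cyclase, at 14.1 and 13.6 CPM before and 0 and 0.132 CPM after transplantation, with 684 and 4 reads (210-fold lower). Adam19, a membrane metalloprotease, fell from 16.6 and 21.4 CPM to 0.552 and 1.12 CPM (log2 -4.50 ± 0.32, adjusted p = 1.36e-08). The scaffold proteins Ablim3 and Amot fell by 4.17 and 3.03 on the log2 scale, and Cd55, which shields cells from complement, from 259 and 222 CPM to 33.9 and 32.0 CPM. Akap12, an anchor for protein kinase A, stayed abundant while it fell from 1390.4 and 1592 CPM to 282 and 267 CPM. Rgs2, a brake on G protein signalling, and Plaur, the urokinase receptor, fell by 2.53 ± 0.29 and 2.51 ± 0.19 on the log2 scale.

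**Figure D2:**
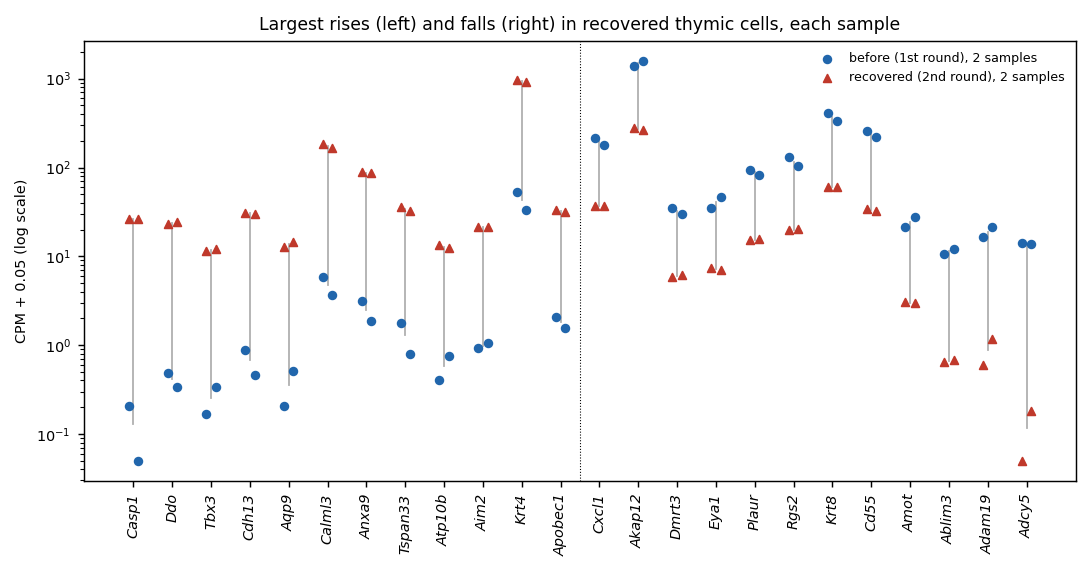
Level in each of the 4 thymic samples (CPM + 0.05, log axis) of the 12 named genes with the largest rises and the 12 with the largest falls, with blue circles before transplantation, red triangles after recovery and a line between the group means. The 24 genes were chosen among those whose red and blue points do not overlap, and the 2 recovered samples of a gene lie almost side by side.

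Genes of the cornified envelope and of keratinocyte differentiation rose together in recovered cells. Of 40 measured members 25 (62.5%) were called higher, none was called lower, and their median log2 fold change was 1.72. The 8 members below 0 included the desmosomal cadherin Dsc2 at -0.82 and Dsg4 at -1.79, neither of them called. Calml3, a calmodulin of stratified epithelia, rose from 5.75 and 3.64 CPM to 183 and 167 CPM (log2 5.24 ± 0.18, adjusted p = 3.49e-12). Anxa9, an annexin, rose from 3.06 and 1.82 CPM to 88.4 and 85.6 CPM, and Padi1, which citrullinates proteins of the cornifying cell, from 4.29 and 4.47 CPM to 78.3 and 72.6 CPM. Cnfn, cornifelin, had the highest fitted change of the list (5.43 ± 1.21) but the least even samples, with 0.516 and 0.0414 CPM before transplantation.

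Within that list the rise ran through several steps of barrier formation. Krt10, the keratin of cells that have left the basal layer, went from 1.79 and 0.911 CPM to 14.4 and 12.02 CPM. The desmosomal cadherin Dsc3 went from 311 and 359 CPM to 1086 and 1118 CPM, and Evpl, an envelope scaffold, from 319 and 335 CPM to 1072 and 1042 CPM. Lipid genes of the skin barrier also rose: the lipid transporter Abca12 and the elongase Elovl4 by 1.73 ± 0.22 and 1.71 ± 0.14 on the log2 scale, the desaturase Degs2 by 2.05 ± 0.18 and the lipoxygenase Alox12 from 31.8 and 28.0 CPM to 140 and 139 CPM. The beta-defensins Defb1, Defb4 and Defb14, antimicrobial peptides of epithelia, rose by 3.96, 3.56 and 3.47 on the log2 scale. These 3 are members of a multigene family, so reads shared between copies could be left uncounted. Proteins of the same process that were not called included Casp14 (log2 -0.12), Dsp (0.50) and Dsg3 (0.57).

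**Figure D3:**
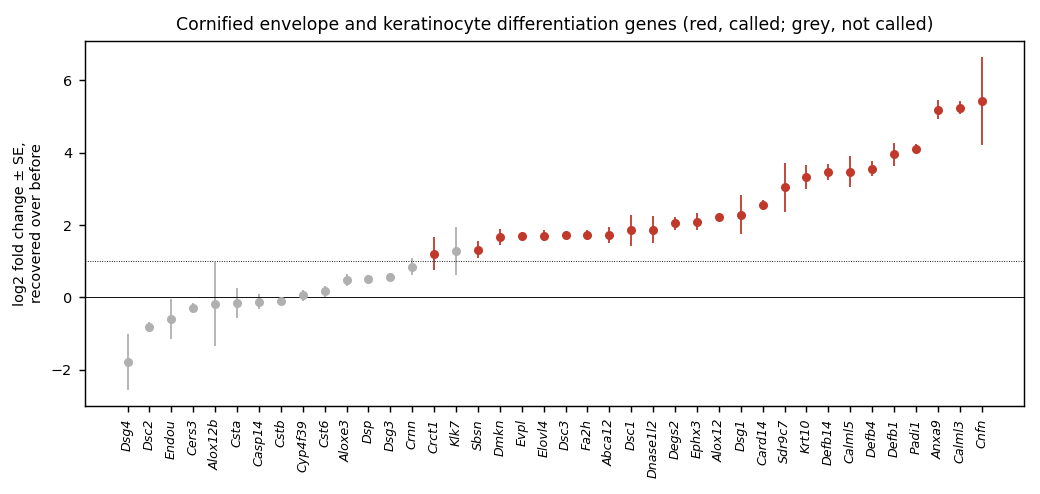
Log2 fold change with its SE (vertical axis) of the 40 measured genes of the cornified envelope and keratinocyte differentiation list in recovered over before thymic cells, red where called higher and grey where not called. The 25 called genes lie between Crct1 (1.21) and Cnfn (5.43), and 8 genes lie below 0.

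Epidermal and hair follicle markers were few among the named genes. Of 8 tested, 5 rose: besides Krt10 these were the patterning factors En1 (0.238 and 0.124 CPM to 1.91 and 1.29 CPM) and Barx2 (41.4 and 34.0 CPM to 91.3 and 85.3 CPM) and the receptor Edar with its adaptor Edaradd, which signal in hair placodes. Tfap2b and Cd34, other follicle genes, were at or near the floor in all 4 thymic samples and were not called. Lhx2 and Gata3 had no symbol in the files and were not analysed here.

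Keratins of simple and mucosal epithelia moved in both directions. Krt4, a mucosal keratin, rose from 53.2 and 33.5 CPM to 968 and 910 CPM (log2 4.47 ± 0.36, adjusted p = 5.37e-08). Krt8 and Krt18, which pair with each other in simple epithelia, parted: Krt8 fell from 411 and 331 CPM to 59.6 and 59.9 CPM (log2 -2.63 ± 0.12, adjusted p = 8.23e-11), whereas Krt18 rose from 2.78 and 2.94 CPM to 6.07 and 7.07 CPM (1.20 ± 0.27, adjusted p = 0.00176). Krt18 was called under all alternatives except a threshold of 4-fold and a fit with the share of reads on no gene as covariate, where its log2 change was 0.88. Krt19 was at 21.2 and 14.6 CPM before and 37.0 and 33.1 CPM after (0.99 ± 0.16), just short of the fold required. Keratin genes have near-identical copies in the genome, which could hold back reads.

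Over the 33 measured members of this list, 10 (30.3%) rose and 2 (6.06%) fell, with a median log2 fold change of 0.83. Without sample 2 before transplantation 5 fell. The polymeric immunoglobulin receptor Pigr rose from 2.62 and 1.70 CPM to 17.7 and 15.4 CPM, the choline transporter Slc44a4 from 3.02 and 1.70 CPM to 13.0 and 10.9 CPM, and the Ets factor Elf5 by 2.13 ± 0.24 on the log2 scale. The water channel Aqp5, in contrast, fell from 7.02 and 5.67 CPM to 0.0849 and 0.0660 CPM, under the floor. The tight junction claudins Cldn3 and Cldn4 had log2 changes of -0.92 and -0.61 and were not called.

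Developmental transcription factors moved in both directions. Of 35 measured, 12 (34.3%) rose and 7 fell, with a median log2 fold change of 0.58. Among the thymic factors Eya1, a phosphatase and transcriptional coactivator, fell from 34.7 and 46.3 CPM to 7.43 and 6.93 CPM (log2 -2.48 ± 0.16, adjusted p = 3.22e-09). Hoxa3 (9.29 and 9.32 CPM, then 10.4 and 10.3 CPM) and the LIM factor Isl1 (15.002 and 13.4 CPM, then 18.8 and 17.2 CPM) changed by less than 2-fold, with 95% intervals of the log2 change between -0.06 and 0.55. Tbx1, in which loss impairs thymus formation, rose from 3.10 and 2.44 CPM to 7.81 and 5.51 CPM (1.22 ± 0.33, adjusted p = 0.00573), and without recovered sample 1 its change was 0.97, and with weights for sample quality it was not called (adjusted p = 0.131). Foxa1, an endodermal factor, was at 2.94 and 3.11 CPM before and 5.35 and 4.13 CPM after and was not called (adjusted p = 0.211).

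Several factors of other regions of the body rose as well. Cdx2, a homeobox factor of the intestine, went from 2.90 and 1.62 CPM to 36.9 and 33.3 CPM (log2 3.99 ± 0.22, adjusted p = 5.98e-10). Wt1, which acts in kidney and mesothelium, went from 0.119 and 0.207 CPM to 5.61 and 6.24 CPM, and Ebf1 from 3 reads in both samples to 103 reads. The falls included the doublesex-related factors Dmrt3 (34.9 and 30.1 CPM to 5.73 and 6.11 CPM) and Dmrt1, the SRY-related factor Sox11 and the forebrain factor Emx2.

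Genes of interferon response and antigen presentation did not move as one. Of 30 measured, 5 (16.7%) rose and 8 (26.7%) fell, with a median log2 fold change of -0.08 and 15 members on each side of 0. Beside Casp1, Aim2 and Casp4, the rises were Ifi47, an interferon-inducible GTPase (5.95 and 5.55 CPM to 37.2 in both recovered samples), and Slfn5. The falls held classical interferon targets: Isg15, a ubiquitin-like modifier, fell from 14.0 and 9.90 CPM to 3.10 and 2.87 CPM, and Ifit2 from 42.0 and 43.2 CPM to 11.2 and 11.1 CPM. Cxcl10, a chemokine for T cells, fell from 45.1 and 37.1 CPM to 20.1 and 18.5 CPM, and the costimulatory ligand Cd80 from 35.0 and 54.6 CPM to 15.8 and 17.2 CPM. Cd74 and Ciita, of the class II presentation pathway, were low in all samples (2.54 to 4.60 CPM) and overlapped between the rounds.

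Promoter sequences were matched for 21 of the 30 genes, and 6 held the ISRE core, against 3.41% of all 33469 RefSeq promoters. They were Casp1 among 4 genes with a sequence that rose and Apol9a, Cd80 and Cxcl10 among 4 that fell. Gbp5 and Irgm were the matches among 13 not called, so the element was found in each class, at unequal shares of few genes. Isg15, Ifit2, Apol3 and Ifitm1, which also fell, had no sequence and were not searched.

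Chemokines and NF-kB target genes also split. Of 32 measured, 9 (28.1%) rose and 5 (15.6%) fell, with a median log2 fold change of 0.19. Cxcl1, a neutrophil attractant, fell from 217 and 181 CPM to 36.9 CPM in both recovered samples (log2 -2.42 ± 0.14, adjusted p = 7.32e-10), while its relative Cxcl3 rose from 99.2 and 72.7 CPM to 385 and 366 CPM and Cxcl2 was at 43.5 and 33.5 CPM, then at 22.2 CPM in both, and was not called. These chemokines are close relatives, and reads that fit several of them were left uncounted. Tnfaip3, which ends NF-kB signalling, fell from 129 and 137.4 CPM to 25.3 and 26.7 CPM, and Ccl20, an attractant of dendritic and T cells, from 5.44 and 4.10 CPM to 0.382 and 0.231 CPM. Ptgs2, an inducible cyclooxygenase, and Il1r2, a decoy receptor for interleukin-1, rose by 2.11 ± 0.18 and 3.98 ± 0.33 on the log2 scale. Cxcl6, another neutrophil attractant, rose from 14.1 and 10.6 CPM to 29.7 and 29.4 CPM, and Bcl2a1, an inhibitor of cell death, had no read before transplantation and 39 after it. Of 20 genes with a promoter sequence 11 held the kB element, 3 of 4 that fell, 2 of 5 that rose and 6 of 11 not called, against 16.4% of all promoters.

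Immediate early genes respond within minutes to stress or to the dissociation of cells. Of 15 measured, 7 (46.7%) fell and 1 (6.67%) rose, with a median log2 fold change of -0.61. Atf3, a stress-induced transcription factor, fell from 548 and 401 CPM to 107 and 106 CPM (log2 -2.13 ± 0.14, adjusted p = 4.07e-09), Dusp1 from 908 and 746 CPM to 328 and 315 CPM, and Csrnp1 from 204 and 162 CPM to 56.4 and 59.6 CPM. Egr1, the best known of them, was at 1228 and 1262 CPM before and 1041 and 1032 CPM after and was not called. The single rise, Egr4, rested on 0 reads before and 5 after.

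Of 52 measured cell cycle genes 8 (15.4%) fell, a share near the 14.0% of all named genes, none rose and 44 were not called. The median log2 fold change was -0.60, and 47 of the 52 values were below 0, as were 46.5% of the values of all named genes. Aurkb, a mitotic kinase, fell most, from 533 and 540 CPM to 158 and 157 CPM (log2 -1.77 ± 0.14, adjusted p = 3.39e-08), followed by Ccne1, cyclin E1, from 33.7 and 26.5 CPM to 9.22 and 8.82 CPM. The mitotic genes Aspm (log2 0.03), Cenpe (-0.12) and Anln (-0.30) were not called, and E2f2 and Diaph3 were each at 0.83. The share of reads on no gene, given above, moved with the rounds, and with it as a covariate 3 members fell in place of 8. Among cell cycle inhibitors and p53 targets, 2 of 14 fell: Cdkn2a, the locus of p16 and p19Arf, from 133 and 96.3 CPM to 27.6 and 27.1 CPM, and Btg2. The TTTGAA or TTTAAA element of cell cycle promoters was found in 16 of 40 promoters of the list, in 1 of the 5 with a sequence that fell, and in 25.4% of all promoters.

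**Figure D4:**
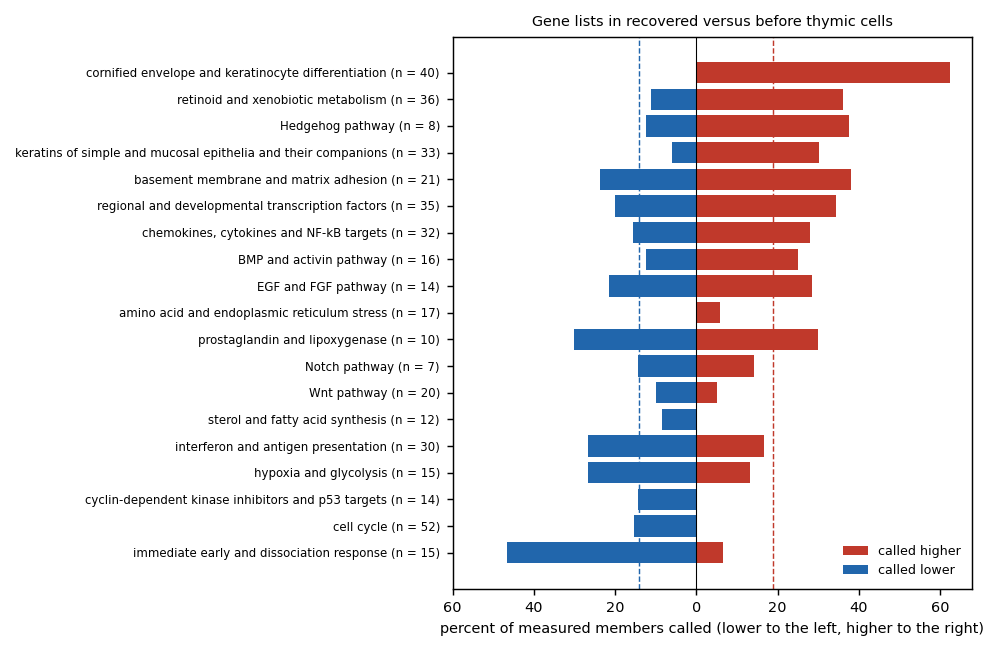
Percent of the measured members of each of 19 gene lists called higher (red, to the right) and lower (blue, to the left) in recovered thymic cells, with dashed lines at the shares among all 1911 named genes (18.9% higher and 14.0% lower). The cornified envelope list reaches furthest to the right with 62.5%, and the immediate early list furthest to the left with 46.7%.

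Genes of the basement membrane and matrix adhesion changed in opposite directions within a family. Of 21 measured, 8 (38.1%) rose and 5 (23.8%) fell, with 3 falling when recovered sample 2 was left out. The collagen IV chains Col4a1 and Col4a2, found in most basement membranes, rose from 9.13 and 7.33 CPM to 19.4 and 21.5 CPM and from 4.64 and 3.89 CPM to 12.1 and 15.2 CPM. Col4a4, a chain of specialised membranes, fell from 6.71 and 9.86 CPM to 0.382 and 0.462 CPM. Col7a1, the collagen of anchoring fibrils under epidermis, rose from 130 and 198 CPM to 614 and 665 CPM, and Itgb8, an integrin that frees TGF-beta, from 0.714 and 2.28 CPM to 11.6 and 13.5 CPM (log2 3.29 ± 0.35, adjusted p = 1.08e-06).

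Fibroblast markers moved with these genes. Of 15 tested, 8 rose and none fell, and their summed level was 497 and 584 CPM before and 666 and 694 CPM after transplantation, most of it Col5a2. The defining markers were low: Dcn, decorin, was at 1.11 and 0.870 CPM before and 2.38 and 3.27 CPM after, Col3a1 at 5.04 and 4.14 CPM before and 13.0 and 13.3 CPM after. Acta2, smooth muscle actin, rose most, from 1.27 and 1.91 CPM to 16.3 and 15.1 CPM. With weights for sample quality 2 of the 8 stayed called. The part of fibroblast RNA in the changes of matrix genes was not tested.

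Signalling lists were short, and their shares called higher ran from 5% (Wnt) to 37.5% (Hedgehog), against 18.9% of named genes. Their shares called lower ran from 10% (Wnt) to 21.4% (EGF and FGF), against 14.0%. In the BMP and activin list 4 of 16 rose and 2 fell. The ligands Bmp6 (1.79 and 1.70 CPM to 16.3 and 15.7 CPM) and Bmp3 (19.3 and 26.2 CPM to 95.3 and 100.3 CPM) rose, as did Bmp4, whereas Bmp8b fell from 49.6 and 44.2 CPM to 9.81 and 10.9 CPM. In the EGF and FGF list the receptor Erbb3 rose from 51.1 and 59.8 CPM to 152 and 154 CPM, the ligand Epgn fell from 141 and 131 CPM to 65.8 and 65.01 CPM, and the ERK phosphatases moved apart, Dusp4 rising by 2.74 ± 0.21 and Dusp5 falling by 1.51 ± 0.10 on the log2 scale. The total was 4 higher and 3 lower of 14.

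In the Hedgehog list 3 of 8 rose and 1 fell. The co-receptor Boc fell from 67.9 and 71.5 CPM to 24.5 and 23.6 CPM, and the rises, Dhh, Gli1 and Evc2, were all at or below 5.68 CPM after transplantation, with 1 of them left when sample 1 before transplantation was omitted. The Wnt list held 1 rise and 2 falls in 20 and the Notch list 1 of each in 7. Wnt3 rested on 2 and 9 reads and lost its call without sample 1 before transplantation (log2 0.81) and without recovered sample 1. Dkk3, a secreted Dickkopf family member, fell from 2.58 and 2.73 CPM to 0.977 and 0.924 CPM and missed the adjusted p required when recovered sample 2 was left out. Beta-catenin (Ctnnb1) was at 527 and 525 CPM before and 661 and 657 CPM after and was not called.

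Among enzymes of retinoid and xenobiotic metabolism 13 (36.1%) of 36 rose and 4 (11.1%) fell. Aldh1a3, which makes retinoic acid, rose from 29.8 and 26.0 CPM to 105 and 99.97 CPM, and Cyp26b1, which degrades it, from 13.8 and 15.9 CPM to 37.7 and 38.7 CPM. Crabp2, which carries retinoic acid to the nucleus, fell from 458 and 334 CPM to 121 and 109 CPM. With weights for sample quality 8 of the 13 stayed called higher. In the prostaglandin and lipoxygenase list 3 of 10 rose and 3 fell: the prostaglandin E synthase Ptges fell from 99.2 and 82.1 CPM to 37.0 and 35.4 CPM, Ptgs1 was at 176 and 186 CPM and then at 138 and 141 CPM and was not called, and Alox15 fell while Alox12 rose. Chst11, a chondroitin sulfotransferase, rose from 9.96 and 13.3 CPM to 23.6 and 24.2 CPM (log2 1.06 ± 0.14), and its change was 0.84 without sample 1 before transplantation.

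Whether the changes were those of transplanted cells in general was asked by setting the change of thymic cells against the changes of the other 4 cultures, which share no sample with it. The change in thymus differed from the mean of the other 4 for 2248 genes, 16.9% of those tested, with 1353 (10.2%) more positive and 895 (6.73%) more negative in thymus. Of the 2046 genes called in thymus, 1477 were also called in this difference (72.2%), which is 65.7% of the genes called there; the thymic values enter both. Against whisker cells, whose change runs from clone 7 to subclone 14, the change differed for 2477 genes (18.6%), 1395 (10.5%) more positive and 1082 (8.13%) more negative in thymus. Of the 1130 genes that rose in thymus, 363 rose in bladder cells, 190 in tracheal, 154 in vaginal and 63 in whisker cells, which is 32.1%, 16.8%, 13.6% and 5.58% of the thymic rises and 27.0%, 32.5%, 27.3% and 22.0% of the genes that rose in those cells. Of the 916 that fell, 325, 262, 219 and 84 fell in these cultures, which is 35.5%, 28.6%, 23.9% and 9.17% of the thymic falls and 22.2%, 24.5%, 21.9% and 16.5% of the falls there. In the opposite direction, 207, 226, 274 and 178 of the thymic rises fell in bladder, tracheal, vaginal and whisker cells. Of the thymic falls, 104, 54, 66 and 86 rose there. More of the thymic rises fell than rose in tracheal, vaginal and whisker cells. For comparison, 10.1% of all tested genes rose in bladder cells, 4.39% did in tracheal cells, 4.25% in vaginal cells and 2.15% in whisker cells, while 11.0%, 8.04%, 7.53% and 3.83% fell. In either direction 21.1%, 12.4%, 11.8% and 5.98% of genes were called in them. Only 3 genes were called higher and 13 lower in all 5 tissues. Named among them were Heph, a copper-dependent ferroxidase, which rose in thymus from 0.119 and 0.290 CPM to 3.57 and 3.50 CPM, and Krt8, Adam19 and Amot among the falls.

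**Figure D5:**
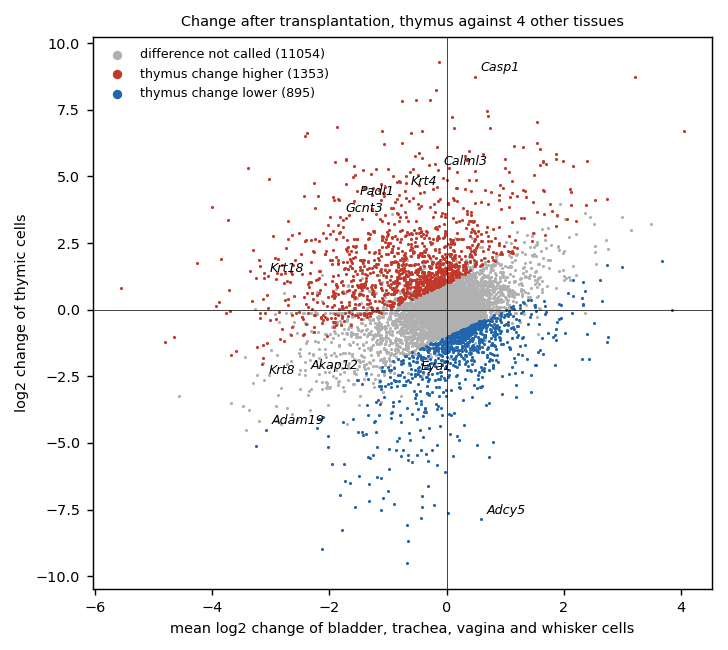
Log2 change of thymic cells after transplantation (vertical axis) against the mean log2 change of bladder, trachea, vagina and whisker cells (horizontal axis) for the 13302 genes tested, with red and blue where the difference between these changes was called. Casp1 and Adcy5 lie far from 0 on the vertical axis and near 0 on the horizontal one, while Krt8 and Akap12 fell in both.

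The named genes with the largest differences separated the thymic cells in several ways. The change of Casp1 exceeded the mean of the others by 8.25 ± 0.63 (SE, log2, adjusted p = 3.41e-08), and in bladder it rose by 2.81. Padi1 rose by 4.10 in thymus and fell by 2.09, 2.92 and 2.79 in bladder, trachea and vagina (difference 5.67 ± 0.18, adjusted p = 2.83e-12). In whisker cells the change of Padi1 was positive, as in thymus. Calml3 rose in thymus and bladder, by 5.24 and 2.91, and changed by -0.86 in trachea, -0.78 in vagina and -1.88 in whisker cells. Adcy5 fell by 7.86 in thymus and rose by 3.31 in vagina. Gcnt3, which branches mucin glycans, rose from 1.51 and 0.953 CPM to 14.2 and 13.0 CPM in thymic cells and fell by 1.32 in trachea and by 4.16 in vagina.

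The keratins differed in how far they were shared. Krt8 fell in all 5 tissues, and the thymic change did not differ from the mean of the others by the test used (difference 0.49 ± 0.24, adjusted p = 0.103). Krt18 fell by 2.24 to 3.84 in the other 4 cultures and rose in thymus alone of the 5 (difference 4.32 ± 0.38, adjusted p = 1.48e-07). Krt4 rose in thymus and bladder and fell by 5.42 in vagina. Eya1 fell in thymus and was not called in any of the other 4 (difference -1.94 ± 0.34, adjusted p = 0.00024). For the cornified envelope list, 10 of the 40 members had a more positive and 4 a more negative change in thymus than in the mean of the others, against 22.3% and 11.3% of all named genes. Dsc3, which rose by 1.72 in thymus, also rose by 2.81, 2.06 and 1.25 in bladder, trachea and vagina, and its difference was 0.17 ± 0.10 (adjusted p = 0.177).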

How the data were processed

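RNA was sequenced with stranded mRNA libraries of EGFP-sorted cells. According to the submitters' processing notes, reads were trimmed with cutadapt 1.8, aligned with STAR 2.5.2b to Rnor 6.0 and counted per Ensembl gene with HTSeq 0.6.1, and the authors deposited these raw counts, with 32494 gene entries per sample. Multiply aligned reads entered no gene's count, which lowers genes with near-identical copies, and entries naming no gene were left out here. Symbols were taken from the study's supplementary lists (2311 identifiers, 1911 usable among tested genes). CPM values were computed with TMM scaling (edgeR 4.0.16), genes reaching 1 CPM in any sample were tested, and differences were tested with limma 3.58.1 (voom, R 4.3.3) with 1 mean per group over all 20 samples, calling genes at adjusted p under 0.05 and log2 fold change of at least 1. Named genes were first the 12 largest rises and 12 largest falls with 10 CPM or more in each sample of the higher round and no overlap between rounds. To these were added up to 4 called members per direction of each of 19 lists, 24 identity genes where paired, and the 6 largest differences from the other tissues. Others named beyond these rules were chosen after their values were seen. The members and lists were chosen with earlier results of these data known. The same samples give 2 replicates per group, and the tests were tested on simulated data. edgeR and DESeq2 1.42.0 tests, other size factors, filters, weights, the replicate block and each sample left out were tried. The numbers of same-numbered thymic samples pair nothing the labels state (r = 0.0875 between their deviations). Promoters are RefSeq sequences of GRCr8, another build than that of the counts, matched by symbol. Some members of the lists are counted but not reported here by name.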

Additional observations from a re-analysis of the deposited data

Results flagged for a closer look

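The change after transplantation differed between thymic cells and other cultures for many genes, by a test of the difference itself in limma. It differed from the mean change of the other 4 tissues for 2248 genes and from that of whisker cells for 2477 genes. More positive in thymus than in that mean, on the log2 scale, were the changes of Casp1 (by 8.25), Padi1 (5.67), Ddo (5.58), Calml3 (5.39), Gcnt3 (5.29) and Krt4 (5.18). Krt18 (4.32), Krt19 (3.75), Itgb8 (2.17), Chst11 (1.33) and Tbx1 (1.13) followed. More negative were the changes of Adcy5 (-8.46), Aire (-2.60), Ptges (-2.08) and Eya1 (-1.94). Aire had 16 reads before and 9 reads after transplantation in thymic cells, and was not called there. The causes of these differences were not tested.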

How the results depend on the processing

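None of the 114 named genes called in thymus was called in the opposite direction under the 15 alternatives. Requiring a log2 fold change of at least 2 left 885 genes changed in thymus, 1006 genes that differed from the mean of the other 4 tissues, 1132 that differed from whisker cells and 82 of the 164 called members of the 19 lists, by construction. With the replicate block these numbers were 2049, 2244, 2498 and 166, and with the replicate block on the 4 thymic samples alone 1795 genes changed. Leaving out 1 sample at a time gave between 1786 and 2288 genes in thymus, between 1954 and 2549 against the mean of the other tissues, between 2125 and 2857 against whisker cells, and between 152 and 161 list members. Of these, the lowest count in thymus came without sample 1 before transplantation and the highest without sample 2. Weights for sample quality gave 1589 genes in thymus, a fit on only the 4 thymic samples 1671, and the share of reads on no gene as a covariate, chosen after seeing the data, 1928. Without a filter on low counts 2683 genes were called and the median log2 change, then taken over more genes, moved to -0.13. Among named genes, the log2 change of Krt8 went from -2.63 to -2.64 and that of Apol3 from -2.81 to -2.92. Of the 114 named genes called, 26 lost the call under at least 1 setting other than the stricter fold, most often with weights for sample quality (14 genes), and Krt19 gained it under 5. Genes with few reads were the limit of depth.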

Other observations

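Other gene groups were measured that stand in no comparison above. Hypoxia and glycolysis genes fell in 4 and rose in 2 of 15 cases: the carbonic anhydrase Car9 fell from 159 and 134 CPM to 43.1 and 43.4 CPM and the mitophagy receptor Bnip3 from 81.4 and 64.4 CPM to 22.0 and 21.9 CPM, while Ddit4, an inhibitor of mTOR signalling, rose from 119 and 111 CPM to 235 and 233 CPM. Leaving out any 1 of the 4 thymic samples left 0 or 1 of the 2 rises called. Among sterol and fatty acid genes 1 of 12 fell, the desaturase Fads2 (168 CPM in both samples before, 74.9 and 75.9 CPM after). Among genes of amino acid and endoplasmic reticulum stress 1 of 17 rose, Derl3, at 2.34 and 1.72 CPM after transplantation.

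Markers of other cell types were at mixed levels. Of 7 adipocyte or sebocyte markers, 3 rose, Fa2h and Cidea among them, and 3 fell (Adipoq, Dgat2 and Lpl). The melanocyte and nerve markers Erbb3 and Ngfr, the only 2 tested, rose, and their summed level was 52.5 and 60.8 CPM before and 155 and 156 CPM after, nearly all of it Erbb3, which epithelial cells also express. Of 3 muscle markers, Atp2a1 rose and Acta1 and Ryr1 fell, none above 5.84 CPM. Of 4 endothelial markers, Egfl7 fell from 5.48 and 5.05 CPM to 1.87 and 1.68 CPM. No sex-linked marker of 3 tested was called. Their part in the results above was not tested.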
